A study of Mus musculus with 48 samples.

Results

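RNA from mouse jejunum, the middle stretch of the small intestine, was compared between a knockout and a control at CT1, an early hour of the subjective day. Both groups have 4 libraries at this time, which makes 8 of the 47 libraries with a column in the count table (48 are labelled). They were chosen by the genotype and time in the column names. The knockout, written Bmal1iec-/-, has a loss of Bmal1 aimed at intestinal epithelial cells, and the control is bmal1fl/fl, with floxed alleles. All groups were kept in constant darkness. The other groups of the study are the same 2 genotypes at CT5, CT9, CT13, CT17 and CT21, where CT counts hours of the animals' own cycle. Jejunal tissue also holds stroma, muscle and immune cells that the knockout is not aimed at. The labels give neither the driver of the deletion nor age or sex, and they do not tie a library to a mouse. Spread between libraries, the basis of all p-values here, may thus be technical. Values per library are in the order of replicates 1 to 4.

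The circadian clock of most cells is a loop of transcription. BMAL1 (gene symbol Arntl) and CLOCK bind E-box sequences and switch on the Per and Cry repressors, which then block them, and also Nr1d1, Nr1d2 and the output factors Dbp, Tef and Hlf. The REV-ERB proteins from Nr1d1 and Nr1d2 repress Arntl and other genes through a DNA element that ROR proteins use to activate them. In the intestine the clock is known for daily rhythms in nutrient uptake, metabolism and defence.

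The 4 knockout libraries were not alike, which bears on each result. Total counts were 6137398, 4785819, 4803341 and 5445780.0 in knockout and 5358706, 5432426, 4337218 and 4745536 in control. A count of 0 in a library still allows 3 counts, a limit that covers counting error only. Relative log expression, the log2 value of a gene in a library minus its median over all libraries, had an interquartile range of 0.76, 0.60 and 0.96 in knockout replicates 1, 2 and 3. It was 0.34 in replicate 4 and 0.29 to 0.40 in the 4 control libraries. Along log2 exonic length the same measure had a slope of −0.11, −0.13 and −0.21 in replicates 1, 2 and 3, against 0.02 in replicate 4 and −0.02 to 0.03 in control. Mitochondrial genes took 5.08%, 7.34%, 2.67% and 4.96% of counts in knockout replicates 1 to 4 and 4.34% to 5.16% in control. Long genes therefore read low in 3 of the 4 knockout libraries, and called genes are given with all 8 libraries and with knockout replicate 4 alone against the 4 controls.

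**Figure D1:**
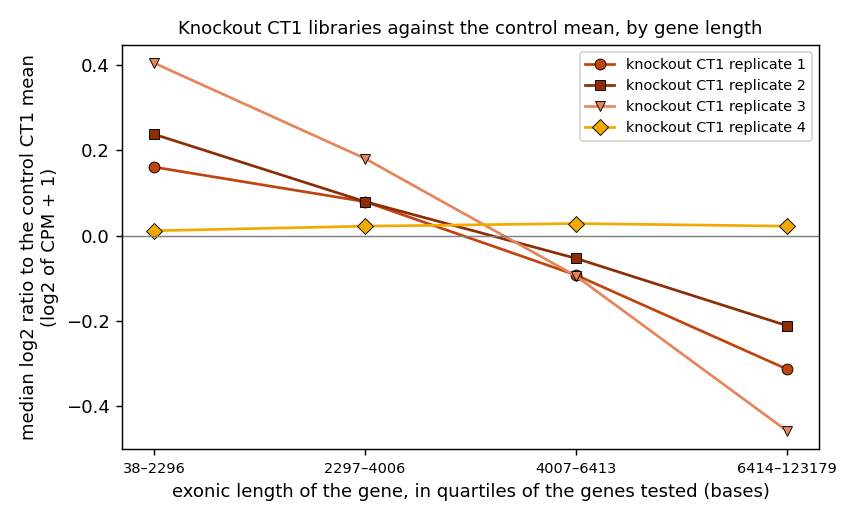
Median log2 ratio of each knockout CT1 library to the control CT1 mean (vertical axis, log2 of CPM + 1), for genes in 4 classes of exonic length (horizontal axis, bases). Replicates 1, 2 and 3 slope down from 0.16, 0.24 and 0.41 for the shortest genes to −0.31, −0.21 and −0.46 for the longest, and replicate 4 stays between 0.01 and 0.03.

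With all 8 libraries, 3233 of 15646 genes tested passed an adjusted p of 0.05 (20.7%), of which 1971 were higher (12.6% of genes tested) and 1262 lower (8.07%) in the knockout. The count was 1320.0 without knockout replicate 1 and 1557 without control replicate 1, and an offset for gene length moved the split to 2322 higher and 758 lower. Of the genes tested, 2606 had ranges of CPM, the count scaled to library size, that did not overlap between the groups (16.7%). The calls followed gene length. In the shortest class of 4, genes of up to 2296 bases, 784 were higher and 87 lower with a median log2 fold change of 0.29, and in the longest class, above 6413 bases, 143 were higher and 666 lower with a median of −0.23. With knockout replicate 4 alone the medians of the same classes were −0.02 and −0.0031. In that fit 17 genes passed (0.109%), 13 higher and 4 lower, and each of the 17 was also called in the same direction with all 8 libraries. A lone library gives such a fit little reach, so weaker criteria were set beside it: 1328 genes had an unadjusted p under 0.05 with replicate 4 alone (8.49%), and 679 of the 3233 were among them in the same direction. Leaving out also the wide libraries of CT21 (knockout replicate 4 and control replicate 1) gave 40 calls (0.256%), of which 32 were shared with the fit of all 8.

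Of the 17 genes, 8 were clock genes. Of the 20 listed clock activators, repressors, nuclear receptors and PAR bZIP factors, 12 were called with all 8 libraries, 8 higher and 4 lower, and 8 were called with replicate 4 alone. Described here are Arntl, Nr1d1 and Nr1d2, lower in the knockout, and Per2, Cry1, Cry2 and Tef, higher in the knockout. Per2, Cry2 and Tef have exons of more than 4006 bases in all, the upper part of the range where knockout replicates 1 to 3 read low, and were higher in each of those replicates than in any control library.

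Among the activators, Arntl itself (chromosome 7, positions 113207465 to 113314126, plus strand of mm10) stood at 25.2, 18.4, 30.8 and 34.8 CPM in knockout and 71.4, 75.4, 78.5 and 76.5 CPM in control. Every knockout library lay below every control library, and replicate 4 was the highest of the knockout values. Means were 27.3 ± 7.15 CPM in knockout and 75.5 ± 2.99 CPM in control (SD, n = 4 each; log2 fold change −1.46, SE 0.14, edgeR adjusted p = 1.1e-09), and replicate 4 alone gave −1.14, SE 0.20, edgeR adjusted p = 0.0032. The deletion itself was not measured, since counts cover the whole gene. Clock, the partner of BMAL1, had 99.1, 115, 51.3 and 129.6 CPM in knockout and 120.4, 104, 112 and 111 CPM in control, with knockout replicate 3 far below the rest, and did not pass. Clock gave a log2 fold change of −0.18 (SE 0.25, edgeR adjusted p = 0.64). Npas2, a paralog of Clock that can stand in for it, overlapped between the groups, at 106, 70.8, 70.0 and 89.8 CPM in knockout and 60.4, 63.6, 70.8 and 83.2 CPM in control. Npas2 gave a log2 fold change of 0.28 (SE 0.15, edgeR adjusted p = 0.19). Arntl2 had few counts and did not pass (edgeR adjusted p = 0.15).

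Nr1d1 and Nr1d2 had the lowest log2 fold changes of the 20 clock genes. Nr1d1 (REV-ERB alpha; chromosome 11, positions 98767932 to 98775333, minus strand) had 2.84, 2.09, 3.25 and 2.67 CPM in knockout and 33.9, 24.3, 34.7 and 37.0 CPM in control. The knockout values were all below 4 CPM and drew on 9 to 15 counts per library, against 140 to 196 counts in control (log2 fold change −3.56, SE 0.26, edgeR adjusted p = 1.2e-13), and replicate 4 alone gave −3.62, SE 0.46, edgeR adjusted p = 1.1e-05. It overlaps Thra on the other strand, and the strand setting of the counting is not given in the sources used here. Nr1d2, its paralog, had 2.65, 6.04, 1.30 and 6.09 CPM in knockout and 32.7, 21.9, 24.6 and 23.0 CPM in control, again without overlap. Nr1d2 gave a log2 fold change of −2.67 (SE 0.29, edgeR adjusted p = 4.3e-08), and −2.10 with replicate 4 alone (SE 0.42, edgeR adjusted p = 0.015). Rora was lower with all 8 libraries (log2 fold change −1.08, SE 0.31, edgeR adjusted p = 0.011). That call ended with replicate 4 alone (−0.61, SE 0.47, edgeR adjusted p = 0.79), without knockout replicate 1 (edgeR adjusted p = 0.061) and without control replicate 1 (edgeR adjusted p = 0.051).

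**Figure D2:**
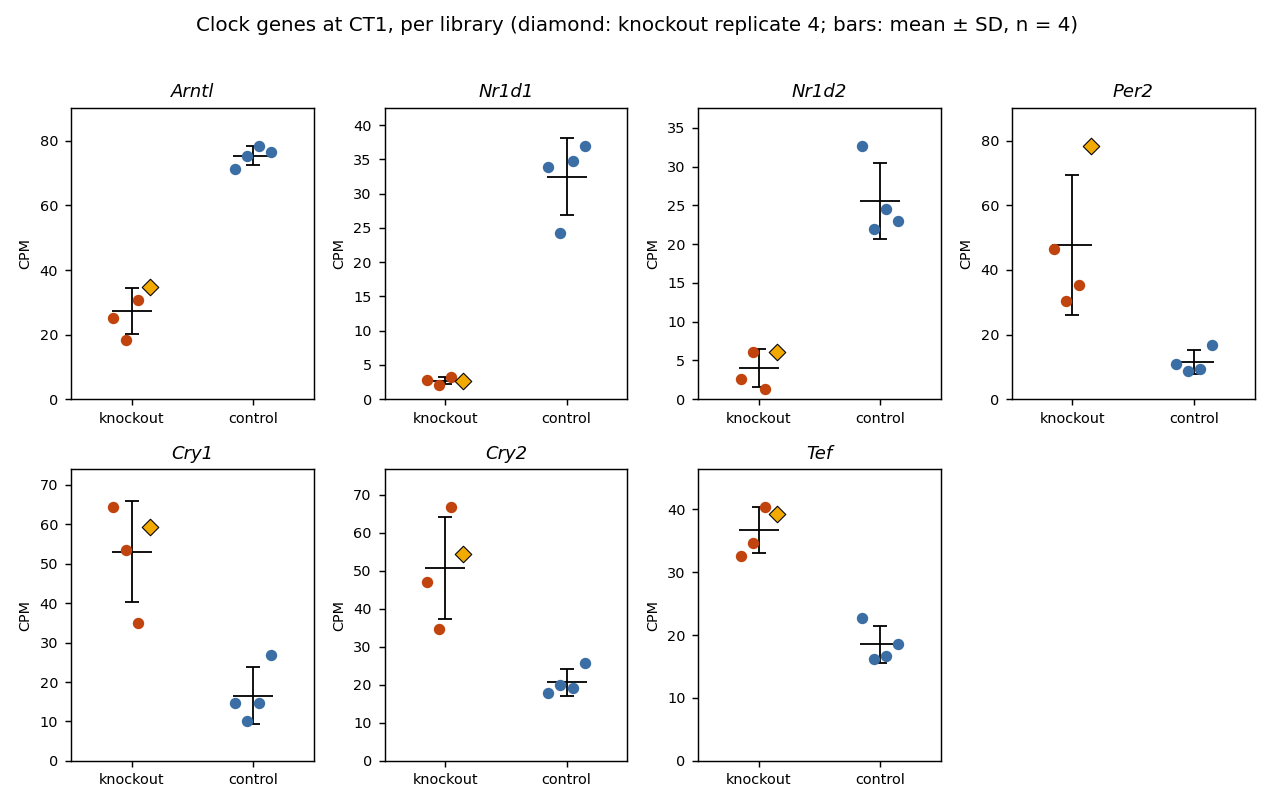
CPM (vertical axes, from 0) of 7 clock genes whose call held with knockout replicate 4 alone, knockout left and control right in each panel. Points are libraries, the diamond is knockout replicate 4, and bars are means ± SD (n = 4). In each panel the knockout libraries lie on one side of all control libraries.

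Of the 8 repressors of the loop, 4 were higher and none lower. Per2 (chromosome 1, positions 91415982 to 91459324, minus strand) had 46.4, 30.4, 35.3 and 78.4 CPM in knockout and 10.9, 8.69, 9.49 and 16.7 CPM in control, and replicate 4 was the highest. Per2 gave a log2 fold change of 2.07 (SE 0.30, edgeR adjusted p = 2.5e-05), and 2.75 with replicate 4 alone (SE 0.37, edgeR adjusted p = 2.8e-05). Cry1 had 64.3, 53.4, 35.1 and 59.4 CPM in knockout and 14.7, 10.1, 14.7 and 26.8 CPM in control. Cry1 gave a log2 fold change of 1.69 (SE 0.22, edgeR adjusted p = 2.8e-06), and 1.82 with replicate 4 alone (SE 0.30, edgeR adjusted p = 8.0e-04). For Cry2 the values were 47.1, 34.8, 66.7 and 54.4 CPM in knockout and 17.8, 19.99, 19.2 and 25.7 CPM in control. Cry2 gave a log2 fold change of 1.30 (SE 0.15, edgeR adjusted p = 2.2e-07), and 1.37 with replicate 4 alone (SE 0.19, edgeR adjusted p = 3.1e-05). The lowest knockout library exceeded the highest control library for all 3 genes. Bhlhe40 (DEC1), which competes for E-boxes, had 142, 151, 111 and 118 CPM in knockout and 77.8, 63.3, 54.6 and 93.3 CPM in control. Bhlhe40 gave a log2 fold change of 0.86 (SE 0.14, edgeR adjusted p = 2.1e-04), but was not called with replicate 4 alone (0.68, SE 0.21, edgeR adjusted p = 0.33). Per1 (−0.09, edgeR adjusted p = 0.87), Per3 (0.08, adjusted p = 0.85), Ciart (−0.37, adjusted p = 0.68) and Bhlhe41 (0.04, adjusted p = 0.98) did not pass.

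Of the 4 genes Tef, Dbp, Hlf and Nfil3, the first 3 of which encode PAR bZIP factors, 3 were higher. Tef had 32.5, 34.6, 40.3 and 39.2 CPM in knockout and 22.7, 16.2, 16.6 and 18.6 CPM in control, with no overlap. Tef gave a log2 fold change of 0.98 (SE 0.14, edgeR adjusted p = 1.8e-05), and 1.05 with replicate 4 alone (SE 0.21, edgeR adjusted p = 0.014). Dbp had few counts, at 1.89, 2.32, 3.47 and 2.09 CPM in knockout and 1.56, 1.04, 0.647 and 0.836 CPM in control. Dbp gave a log2 fold change of 1.20 (SE 0.35, edgeR adjusted p = 0.013). Hlf had 6.05, 6.04, 4.33 and 5.33 CPM in knockout and 1.90, 3.82, 2.59 and 3.14 CPM in control. Hlf gave a log2 fold change of 0.92 (SE 0.27, edgeR adjusted p = 0.013). In both genes replicate 4 exceeded all 4 controls, but neither call held with it alone (edgeR adjusted p = 0.65 for Dbp and 0.56 for Hlf), and single libraries decided both: the Dbp call ended without knockout replicate 3 (edgeR adjusted p = 0.071), and the Hlf call without knockout replicate 1 (edgeR adjusted p = 0.059) or control replicate 1 (edgeR adjusted p = 0.07). Nfil3, a repressor that binds the same element, overlapped between the groups (−0.15, edgeR adjusted p = 0.64). Of 9 clock kinases, ligases and outputs, 2 were higher and none lower, near the 20.7% of all genes tested that were called. Usp2, a deubiquitinase, stood at 64.5, 53.4, 51.3 and 40.0 CPM in knockout and 21.4, 27.8, 24.4 and 23.4 CPM in control. Usp2 gave a log2 fold change of 1.11 (SE 0.15, edgeR adjusted p = 8.8e-06). The ubiquitin ligase gene Fbxl21 gave a log2 fold change of 0.84 (SE 0.23, edgeR adjusted p = 0.01). In replicate 4 alone both kept their sign (0.69 for Usp2 and 1.17 for Fbxl21) with edgeR adjusted p = 0.35 and 0.25.

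The effect at CT1 was next set against its mean over the other 5 times, which can itself average effects of opposite sign. Mean effects quoted over those times come from the fit without the 5 wide libraries. Tests of the difference used all 39 libraries of those times. The difference between the genotype effect at CT1 and its mean over the other 5 times passed for 838 genes with all libraries (5.36%), and with replicate 4 as the only knockout library at CT1 it passed for 5, among them Per2, Tef and Nat8f5, higher at CT1 than elsewhere, and Arntl, lower. The 838 were 517 higher and 321 lower, a split of 374 and 376 under upper quartile scaling and of 616 and 210.0 under a gene length offset. The count was 144 without knockout replicate 1, 516 without knockout replicate 3, and 174, 501 and 343 without control replicates 1, 2 and 3, and 2570.0 without knockout replicate 4. Per2 had a log2 fold change of 2.07 at CT1, and of 0.76, −0.49, −0.89, −0.14 and −0.07 at the times after it (edgeR adjusted p of the difference 4.2e-05, and 4.2e-05 with replicate 4 alone). Tef changed sign after CT1, with 0.98 at CT1 and −0.71, −1.45, −1.29, −0.66 and −0.08 at the 5 later times (edgeR adjusted p of the difference 6.7e-11, and 1.1e-06 with replicate 4 alone). Arntl was lower at CT1 (−1.46), CT17 (−0.62) and CT21 (−1.34), near 0 at CT5 (0.05) and higher at CT9 (1.43) and CT13 (1.43), so the effect at CT21 was close to that at CT1, and the difference from the mean of the other times passed (edgeR adjusted p = 7.7e-10, and 8.7e-04 with replicate 4 alone).

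Nat8f5, an N-acetyltransferase-like gene, differed at the other times and not at CT1. It had 26.9, 15.1, 14.1 and 12.9 CPM in knockout and 8.82, 15.6, 12.5 and 13.2 CPM in control at CT1, with overlapping groups (0.47, edgeR adjusted p = 0.14). Over the other 5 times it was lower in the knockout (−1.82; edgeR adjusted p of the difference 6.8e-08, and 0.015 with replicate 4 alone). For Nr1d1 the difference passed with all libraries (−1.95, edgeR adjusted p = 4.2e-05) and not with replicate 4 alone (0.21). Npas2 was higher over the other 5 times (1.36) and showed 0.28 at CT1, a difference that also passed with all libraries only (edgeR adjusted p = 1.3e-04, and 0.22 with replicate 4 alone). Dbp followed Tef in sign, higher at CT1 and lower over the other times (−1.24; edgeR adjusted p of the difference 6.1e-05, and 0.27 with replicate 4 alone).

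**Figure D3:**
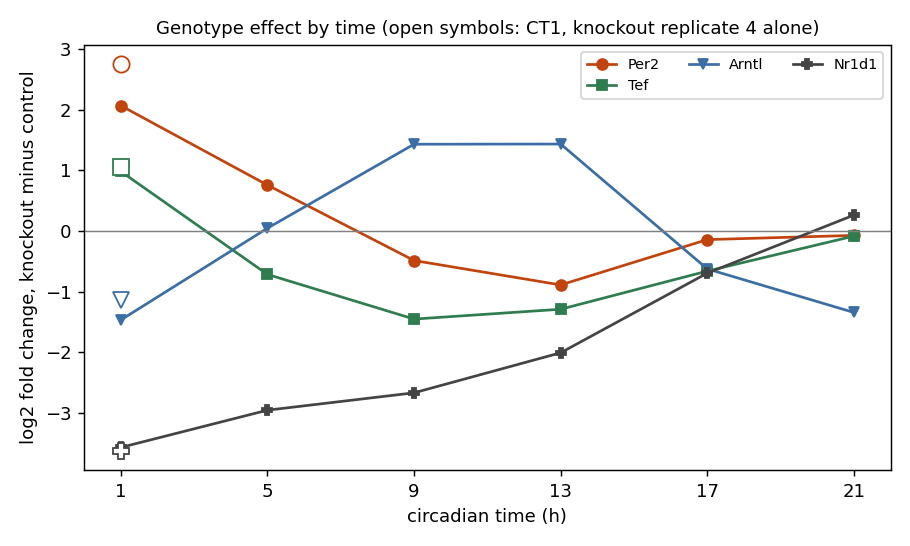
Log2 fold change of knockout against control (vertical axis) at the 6 circadian times (horizontal axis, hours) for Per2, Tef, Arntl and Nr1d1, from the fit of all libraries; open symbols at CT1 are knockout replicate 4 alone. Per2 and Tef are above 0 at CT1 and below 0 at CT9 and CT13, Arntl does the reverse, and Nr1d1 runs from −3.56 at CT1 to 0.26 at CT21.

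Outside the clock, 9 genes were called both with all 8 libraries and with replicate 4 alone. Sucnr1, the succinate receptor known from tuft cells, had 14.9, 6.97, 10.6 and 14.8 CPM in knockout and 1.73, 1.39, 1.73 and 1.25 CPM in control. Sucnr1 gave a log2 fold change of 2.94 (SE 0.35, edgeR adjusted p = 2.4e-07), and 3.23 with replicate 4 alone (SE 0.44, edgeR adjusted p = 2.8e-05). Its control values drew on 6 to 10 counts. The other tuft cell genes moved less: of the 6 tested, 3 were higher with all 8 libraries, among them the cation channel gene Trpm5 (log2 fold change 0.82, SE 0.22, edgeR adjusted p = 0.0072; 0.71, adjusted p = 0.52, with replicate 4 alone; edgeR adjusted p = 0.077 without knockout replicate 1), and of the 3 only Sucnr1 was called with replicate 4 alone. Aqp8, a water channel of the epithelium, had 44.3, 11.4, 60.2 and 26.6 CPM in knockout and 2.42, 4.34, 2.59 and 0.836 CPM in control. Aqp8 gave a log2 fold change of 3.77 (SE 0.50, edgeR adjusted p = 5.6e-06), and 3.32 with replicate 4 alone (SE 0.59, edgeR adjusted p = 0.0032). Its knockout libraries spread over a wide range, and control replicate 4 held 4 of its counts. Adad2, known as an RNA-binding protein of the testis, had 9.46, 4.65, 12.8 and 5.90 CPM in knockout and 0.865, 1.22, 1.08 and 1.25 CPM in control. Adad2 gave a log2 fold change of 2.87 (SE 0.35, edgeR adjusted p = 4.9e-07), and 2.37 with replicate 4 alone (SE 0.46, edgeR adjusted p = 0.0095). All 3 genes were higher in the knockout over the other 5 times too, by 2.93 for Sucnr1, 5.09 for Aqp8 and 2.87 for Adad2 on the log2 scale, in libraries separate from those at CT1.

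Lpar2, a receptor for lysophosphatidic acid, had 9.08, 6.27, 10.2 and 12.8 CPM in knockout and 3.29, 3.30, 2.80 and 3.35 CPM in control. Lpar2 gave a log2 fold change of 1.58 (SE 0.23, edgeR adjusted p = 2.5e-05), and 1.96 with replicate 4 alone (SE 0.31, edgeR adjusted p = 2.9e-04). Its CT1 effect exceeded that over the other times (0.40; edgeR adjusted p of the difference 0.0058), which missed the threshold with replicate 4 alone (0.052). Lingo4 had 6.81, 2.79, 8.02 and 8.76 CPM in knockout and 1.38, 1.04, 2.16 and 1.67 CPM in control. Lingo4 gave a log2 fold change of 2.09 (SE 0.38, edgeR adjusted p = 4.4e-04), and 2.46 with replicate 4 alone (SE 0.49, edgeR adjusted p = 0.013). An antisense transcript overlaps Lingo4, and without the strand setting its reads cannot be told apart from those of Lingo4. A gene on the same strand ends 240 bases before Lingo4, and reads running on from it were not separated. S100a14, a calcium-binding protein of epithelia, had 16.8, 6.04, 8.45 and 16.4 CPM in knockout and 3.98, 1.22, 3.88 and 5.65 CPM in control. S100a14 gave a log2 fold change of 1.72 (SE 0.36, edgeR adjusted p = 0.0016), and 2.14 with replicate 4 alone (SE 0.47, edgeR adjusted p = 0.042). Tmem189 (log2 fold change 1.10, SE 0.23, edgeR adjusted p = 0.0016; adjusted p = 0.0095 with replicate 4 alone), whose interval overlaps 4 other annotated genes, and the membrane-bound transcription factor gene Myrf (log2 fold change 0.29, SE 0.09, edgeR adjusted p = 0.024; 0.57 with replicate 4 alone) were higher as well. Myrf had 67.0, 60.4, 68.7 and 88.3 CPM in knockout and 57.9, 59.4, 59.1 and 56.9 CPM in control. Its call with all 8 libraries ended without knockout replicate 4 (edgeR adjusted p = 0.16) or knockout replicate 1 (edgeR adjusted p = 0.058). It also ended without control replicate 1 (edgeR adjusted p = 0.064) or control replicate 4 (edgeR adjusted p = 0.052). Both of its calls thus leaned on knockout replicate 4. F3, tissue factor, the starter of blood clotting, was the remaining gene that was lower, at 5.49, 7.90, 5.63 and 3.43 CPM in knockout and 12.3, 13.9, 9.92 and 9.62 CPM in control. F3 gave a log2 fold change of −1.04 (SE 0.21, edgeR adjusted p = 0.0012), and −1.77 with replicate 4 alone (SE 0.37, edgeR adjusted p = 0.02). Of the 17 genes, 10 were called with replicate 4 alone under each of the 11 alternatives tried. Leaving out control replicate 2 ended the calls of F3, Lingo4, Tef, S100a14 and Myrf, control replicate 3 those of Tef, S100a14 and Myrf, control replicate 1 those of S100a14 and Myrf, and control replicate 4 that of Myrf. The highest adjusted p over all alternatives (edgeR, DESeq2 or limma) was 0.062 for Lingo4 and Tef, 0.079 for Nr1d2, 0.14 for F3 and S100a14, 0.20 for Cry1 and 0.49 for Myrf.

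**Figure D4:**
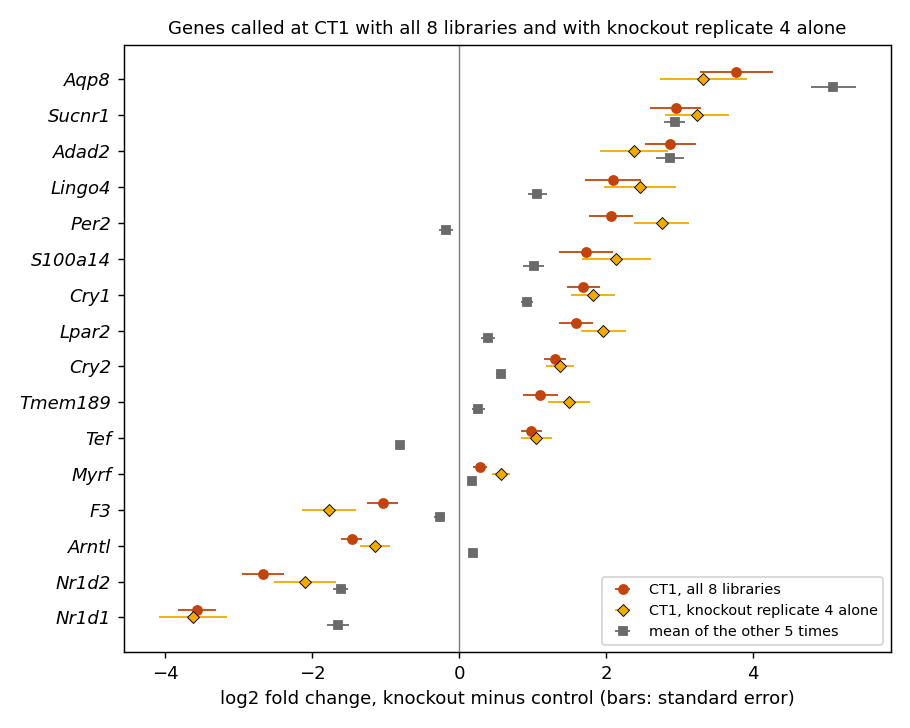
Log2 fold change of knockout against control with its standard error (horizontal axis) for 16 of the 17 genes called at CT1 with all 8 libraries and with knockout replicate 4 alone, and the mean over the other 5 times. Values with all 8 libraries run from −3.56 (Nr1d1) to 3.77 (Aqp8), and over the other times Per2, Arntl and Tef have the opposite sign. Values over the other times leave out the wide libraries.

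E-boxes, the sites that BMAL1 and CLOCK bind, were counted in the RefSeq promoters of these genes (GRCm38.p6, the build named mm10; 250 bases before to 50 after each start). The table holds a promoter for 12 of the 17. CACGTG, which reads the same on both strands, was present in 5 of the 12 (Cry1, Tef, Aqp8, Adad2 and Lpar2), against 8.09% of all 27025 symbols with a promoter. Each of the 5 was higher in the knockout, as were most of the 17 genes, and a link of motif and direction was not tested. The variant AACGTG, read on either strand (CACGTT on the other), was present in Cry1, Cry2 and Nr1d1, against 5.44% of symbols. A match is a description of these letters and not a site. The promoters of Cry1 and Tef, the clock genes with CACGTG, of Lpar2, which has 2 of them and no listed clock role, and of Nr1d1, with the variant and the deepest fall, are shown 5′ to 3′ with both motifs in capitals.
Cry1 (chr10:85185005-85185304, minus strand): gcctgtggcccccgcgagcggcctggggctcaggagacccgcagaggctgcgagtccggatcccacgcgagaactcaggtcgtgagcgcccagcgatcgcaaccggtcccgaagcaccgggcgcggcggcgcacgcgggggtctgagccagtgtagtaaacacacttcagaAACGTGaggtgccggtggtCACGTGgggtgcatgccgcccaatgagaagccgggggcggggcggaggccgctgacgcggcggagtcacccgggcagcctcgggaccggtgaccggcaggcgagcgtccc
Tef (chr15:81802423-81802722, plus strand): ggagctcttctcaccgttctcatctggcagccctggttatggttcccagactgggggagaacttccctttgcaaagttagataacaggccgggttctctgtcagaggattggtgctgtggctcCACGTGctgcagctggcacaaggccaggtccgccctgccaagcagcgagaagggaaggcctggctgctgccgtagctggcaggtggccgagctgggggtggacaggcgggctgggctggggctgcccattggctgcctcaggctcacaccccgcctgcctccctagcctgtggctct
Lpar2 (chr8:69822315-69822614, plus strand): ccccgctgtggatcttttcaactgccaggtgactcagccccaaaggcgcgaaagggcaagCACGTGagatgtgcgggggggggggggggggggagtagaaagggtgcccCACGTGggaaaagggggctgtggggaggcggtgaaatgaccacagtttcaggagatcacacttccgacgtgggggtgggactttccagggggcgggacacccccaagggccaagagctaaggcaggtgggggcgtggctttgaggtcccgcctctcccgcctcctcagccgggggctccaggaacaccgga
Nr1d1 (chr11:98775328-98775627, minus strand): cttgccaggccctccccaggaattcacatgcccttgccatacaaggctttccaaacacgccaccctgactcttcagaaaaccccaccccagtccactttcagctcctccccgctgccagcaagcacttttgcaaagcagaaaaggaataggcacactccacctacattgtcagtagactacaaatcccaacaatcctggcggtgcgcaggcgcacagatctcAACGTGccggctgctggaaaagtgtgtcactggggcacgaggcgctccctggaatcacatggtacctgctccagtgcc

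Genes that differ at the other times were followed into CT1, where the libraries are separate ones. Without the 5 wide libraries, 3527 genes differed over CT5 to CT21 (22.5%), 81 of them at least 2-fold higher (0.518%) and 206 at least 2-fold lower (1.32%) in the knockout. At CT1 with all 8 libraries 44 of the 81 were called in the same direction, where 12.6% of all genes tested were called higher. In replicate 4 alone 74 of the 81 had the same sign (49.4% of all genes tested were above 0), 64 lay above all 4 controls (30.3% of all genes tested did), and the median log2 fold change was 0.99, against 1.45 over the other times. Of the 206, 61 were called lower at CT1 and 2 higher, where 8.07% of all genes tested were called lower. In replicate 4, 184 of the 206 had the same sign and 137 lay below all 4 controls (24.9% of all genes tested did). The 2 called in the opposite direction were Dbp and Sult6b2, which was named after its values were seen, a sulfotransferase-like gene at 5.86, 12.1, 2.60 and 1.71 CPM in knockout and 0.865, 2.43, 1.08 and 1.46 CPM in control. Sult6b2 gave a log2 fold change of 1.87 (SE 0.60, edgeR adjusted p = 0.024), which replicate 4 alone did not show (0.18).

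Several of the largest of these effects were smaller at CT1. Slc34a2, a sodium-phosphate cotransporter, had 1013, 583, 657 and 1006 CPM in knockout and 552, 438, 457 and 615 CPM in control. The groups overlapped, and its effect did not pass (log2 fold change 0.66, SE 0.26, edgeR adjusted p = 0.066), against 2.83 over the other times (edgeR adjusted p of the difference 1.3e-05, and 0.26 with replicate 4 alone). Bco1, which splits carotene into retinal, had 15.7, 9.06, 24.9 and 7.99 CPM in knockout and 29.2, 31.1, 36.2 and 25.1 CPM in control. Every knockout library was below every control library, yet the effect did not pass (log2 fold change −1.08, SE 0.46, edgeR adjusted p = 0.088), against −4.37 over the other times (edgeR adjusted p of the difference 4.3e-04, and 0.62 with replicate 4 alone). Others passed at CT1, and no knockout library reached the control range in any of the next 4 genes. Tmigd1, an adhesion protein of the brush border, had 137, 109.6, 70.6 and 63.0 CPM in knockout and 13.7, 18.8, 17.0 and 22.4 CPM in control. Tmigd1 gave a log2 fold change of 2.40 (SE 0.31, edgeR adjusted p = 3.4e-06), and replicate 4 alone gave 1.78 (edgeR adjusted p = 0.092), the value over the other times being 1.78. The carboxylesterase gene Ces1d had 17.4, 16.3, 14.9 and 12.2 CPM in knockout and 38.4, 50.6, 36.5 and 28.2 CPM in control. Ces1d gave a log2 fold change of −1.34 (SE 0.27, edgeR adjusted p = 0.001), and −1.69 with replicate 4 alone and −2.17 over the other times. Tns4, a focal adhesion protein, was at 10.2, 14.2, 14.7 and 16.9 CPM in knockout and 31.8, 29.9, 26.1 and 30.1 CPM in control. Tns4 gave a log2 fold change of −1.07 (SE 0.25, edgeR adjusted p = 0.0033), and −0.83 with replicate 4 alone (SE 0.41, edgeR adjusted p = 0.59). Defa29, a Paneth cell alpha-defensin whose reads may be shared with near-identical copies, had 44.8, 155, 107 and 55.2 CPM in knockout and 261, 276, 245 and 292 CPM in control. The 10 listed Paneth cell markers, which do not include Defa29, held no call with all 8 libraries. Their median was 0.17, against −0.26 with replicate 4 alone and −0.10 over the other 5 times, where 3 were lower. Defa29 gave a log2 fold change of −1.57 (SE 0.42, edgeR adjusted p = 0.0089), and −2.31 with replicate 4 alone (SE 0.73, edgeR adjusted p = 0.35). It was among the 40 calls made without the 5 wide libraries (edgeR adjusted p = 0.044).

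Of 16 genes of sugar digestion, transport and metabolism, 9 were higher at CT1 and none lower, with a median log2 fold change of 0.69 against −0.01 over all genes tested. With replicate 4 alone the median was 0.41 and none passed after adjustment, but 8 were higher at an unadjusted p under 0.05 and 12 lay above all 4 controls. Among all genes tested, 30.3% lay above all 4 controls in replicate 4. Tkfc, the enzyme that phosphorylates glyceraldehyde from fructose, had 913, 682, 719 and 554 CPM in knockout and 280, 339.9, 366 and 314 CPM in control. Tkfc gave a log2 fold change of 1.14 (SE 0.15, edgeR adjusted p = 2.9e-06), and replicate 4, the lowest knockout library, still exceeded every control (0.74, edgeR unadjusted p = 9.5e-04, adjusted p = 0.23). The glucose transporter gene Slc2a2 had 651, 343, 169 and 536 CPM in knockout and 187, 244, 236 and 214 CPM in control, with knockout replicate 3 below every control. Slc2a2 gave a log2 fold change of 0.95 (SE 0.26, edgeR adjusted p = 0.01), and 1.25 with replicate 4 alone, unadjusted p = 2.8e-04, and its call ended without knockout replicate 1 (edgeR adjusted p = 0.11). Tkfc and Slc2a2 were also called without the 5 wide libraries (edgeR adjusted p = 0.037 and 0.015). Over the other 5 times neither passed (0.12 and −0.07, edgeR adjusted p = 0.082 and 0.62), and the CT1 effect exceeded theirs with all libraries (edgeR adjusted p of the difference 2.7e-04 and 0.034) but not with replicate 4 alone (0.62 and 0.25).

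In the handling of fat, Angptl4, an inhibitor of lipoprotein lipase, stood out with 165, 37.9, 119 and 169.8 CPM in knockout and 16.8, 21.6, 16.6 and 21.1 CPM in control. Angptl4 gave a log2 fold change of 2.69 (SE 0.57, edgeR adjusted p = 0.0019). Knockout replicate 2 was far below the other 3 and still above all controls, and replicate 4 alone gave 3.13 (edgeR unadjusted p = 1.0e-04, adjusted p = 0.073). Of 20 genes of fatty acid oxidation and PPAR alpha targets, 5 were higher and 1 lower (median 0.30, and 0.16 with replicate 4 alone). Of 28 genes of fat absorption, 8 were higher and 1 lower, with medians of 0.30 and 0.07. For comparison, 12.6% of all genes tested were called higher and 8.07% lower with all 8 libraries. Fabp1, the fatty acid carrier of enterocytes, had 4699, 4170, 3736 and 2415 CPM in knockout and 1797, 2112, 1989 and 1825 CPM in control. Fabp1 gave a log2 fold change of 0.96 (SE 0.16, edgeR adjusted p = 2.8e-04), and its replicate 4 value was nearer to the controls (0.30, edgeR adjusted p = 0.79). Cldn8, a tight junction gene with few counts, was higher in replicates 2 and 4 above all (2.08, 6.74, 1.73 and 6.28 CPM in knockout and 0.865, 1.56, 1.08 and 1.88 CPM in control; log2 fold change 1.63, SE 0.42, edgeR adjusted p = 0.006; 2.18, adjusted p = 0.067, with replicate 4 alone). The glucocorticoid-responsive gene Tsc22d3 had 84.9, 85.9, 103 and 93.1 CPM in knockout and 43.8, 46.8, 42.1 and 52.7 CPM in control without overlap. Tsc22d3 gave a log2 fold change of 0.99 (SE 0.17, edgeR adjusted p = 3.0e-04), and 0.98 with replicate 4 alone, unadjusted p = 4.5e-04, while only 3 of the 11 genes of its list were called, 2 higher and 1 lower.

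The list of T cell and intraepithelial lymphocyte markers had 7 of 11 genes lower and none higher, with a median of −1.27, and over the other 5 times all 11 were lower (median −1.34). In replicate 4 the median was −1.46 and 10 of the 11 lay below all controls, 8 at an unadjusted p under 0.05 and none after adjustment. Among all genes tested, 24.9% lay below all 4 controls in replicate 4. Gzmb, a cytotoxic granule protease, had 15.7, 13.2, 9.75 and 13.1 CPM in knockout and 44.8, 19.99, 51.3 and 53.1 CPM in control. Gzmb gave a log2 fold change of −1.70 (SE 0.36, edgeR adjusted p = 0.002), and −1.71 with replicate 4 alone (SE 0.65, edgeR adjusted p = 0.42). Gzma, a second one, had 41.8, 30.7, 25.4 and 27.4 CPM in knockout and 105, 45.7, 131 and 105 CPM in control. Gzma gave a log2 fold change of −1.62 (SE 0.35, edgeR adjusted p = 0.0022), and −1.84 with replicate 4 alone (SE 0.63, edgeR adjusted p = 0.36). In both genes every knockout library was below every control library, and control replicate 2 was the lowest control by a wide margin, and the summed level of the list was 111.8, 92.2, 82.5 and 84.3 CPM in knockout replicates 1 to 4 and 273, 133, 322 and 281 CPM in control. In whole tissue, fewer cells of a type and less RNA per cell cannot be told apart.

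With all 8 libraries 8.07% of all genes tested were called lower and 12.6% higher. Of 9 genes of MHC class II presentation, 7 were lower and 1 higher (median −1.08). With replicate 4 alone their median was −1.49 and 7 lay below all controls, against 24.9% of all genes tested. H2-DMb1, which loads peptides, had 16.5, 16.3, 18.9 and 13.1 CPM in knockout and 56.7, 26.1, 69.5 and 63.4 CPM in control. H2-DMb1 gave a log2 fold change of −1.73 (SE 0.45, edgeR adjusted p = 0.0076), and −2.06 with replicate 4 alone (SE 0.84, edgeR adjusted p = 0.48), with control replicate 2 again the lowest control. Ifi30, a thiol reductase of antigen processing, was the gene that was higher (log2 fold change 0.66, SE 0.19, edgeR adjusted p = 0.011), a call that ended with replicate 4 alone (0.27, SE 0.27, edgeR adjusted p = 0.86), without knockout replicate 1 (edgeR adjusted p = 0.054) and without knockout replicate 3 (edgeR adjusted p = 0.055). Of 20 genes of interferon response and MHC class I, 5 were lower, among them the nucleic acid sensor gene Zbp1 at 14.4, 18.6, 10.4 and 13.5 CPM in knockout and 40.1, 29.4, 44.9 and 58.1 CPM in control. Zbp1 gave a log2 fold change of −1.60 (SE 0.37, edgeR adjusted p = 0.0035), and −1.70 with replicate 4 alone (SE 0.66, edgeR adjusted p = 0.44). The class I transactivator gene Nlrc5 gave a log2 fold change of −1.64 (SE 0.45, edgeR adjusted p = 0.0096), a call that ended with replicate 4 alone (−1.51, SE 0.77, edgeR adjusted p = 0.6) and without knockout replicate 1 (edgeR adjusted p = 0.053). In replicate 4, 16 of these 20 lay below all controls (median −0.51), against 24.9% of all genes tested. Over the other times 19 of the 20 were lower (median −0.53). Of 7 antimicrobial lectin genes, 2 were higher and 1 lower with all 8 libraries (median 0.12). Their median was −0.07 with replicate 4 alone and −0.43 over the other 5 times. Reg1 was among the higher ones, at 706, 1044, 654 and 427 CPM in knockout and 112, 323, 248 and 99.1 CPM in control. Reg1 gave a log2 fold change of 1.85 (SE 0.32, edgeR adjusted p = 3.0e-04), and 1.10 with replicate 4 alone.

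Markers of other cell types also differed between these libraries. In replicate 4 all 10 smooth muscle markers (median −0.54) and 9 of 10 fibroblast and endothelial markers (median −0.52) lay below all 4 controls. There 8 of 10 enterocyte markers lay above all 4 controls (median 0.36). Among all genes tested, 24.9% lay below and 30.3% above all 4 controls in replicate 4. With all 8 libraries 1 of the 10 smooth muscle markers was lower (median −0.0056) and 6 of the 10 fibroblast and endothelial markers were (median −0.455). The share called lower over all genes tested was 8.07%. The summed smooth muscle markers were 1694, 1857, 3363 and 1762 CPM in knockout replicates 1 to 4 and 2450, 2686, 2355 and 2070.0 CPM in control. The summed enterocyte markers were 25380.0, 18460.0, 20120.0 and 18100.0 CPM in knockout and 13990.0, 14400.0, 15320.0 and 16730.0 CPM in control, and these markers were present in every library, as the labelled tissue calls for. With all 8 libraries 7 of 10 enterocyte markers were higher, among them the sodium-glucose transporter gene Slc5a1 at 3083, 2468, 1530 and 1970 CPM in knockout and 1403, 1417, 1651 and 1435 CPM in control. Slc5a1 gave a log2 fold change of 0.62 (SE 0.14, edgeR adjusted p = 0.0022), and 0.39 with replicate 4 alone (SE 0.17, edgeR adjusted p = 0.5). The keratin gene Krt20 gave a log2 fold change of 0.65 (SE 0.17, edgeR adjusted p = 0.0062), a call that ended with replicate 4 alone (0.75, SE 0.22, edgeR adjusted p = 0.29) and without knockout replicate 1 (edgeR adjusted p = 0.079). Over the other 5 times the medians of the 3 lists were 0.06 for smooth muscle, −0.12 for fibroblasts and endothelium and 8.48e-05 for enterocytes. The part of these markers in the results on sugar, fat and immune genes was not tested. Of 8 adipocyte genes, 6 lay below all controls in replicate 4 (median −1.76), but with all 8 libraries the median was 0.35. The called member, Cidec, a lipid droplet protein, was higher (log2 fold change 1.11, SE 0.28, edgeR adjusted p = 0.0058; 0.91, adjusted p = 0.42, with replicate 4 alone). The summed level of the list was 369, 176, 210.1 and 155.7 CPM in knockout and 161.9, 179, 138.9 and 178 CPM in control, so replicate 4 lay within the control range. Of 13 enteroendocrine genes, 5 were higher, among them the hormone genes Cck (log2 fold change 1.10, SE 0.25, edgeR adjusted p = 0.0029; 0.77, adjusted p = 0.59, with replicate 4 alone) and Sct (log2 fold change 1.27, SE 0.31, edgeR adjusted p = 0.0041; 0.73, adjusted p = 0.71, with replicate 4 alone), and 8 lay above all controls in replicate 4 (median 0.39, against 0.62 with all 8 libraries).

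The lists with the most calls rested on knockout replicates 1 to 3. Of 80 cytosolic ribosomal protein genes, 58 were higher with all 8 libraries (median 0.63), and with replicate 4 alone the median was −0.02 and no gene reached even an unadjusted p of 0.05 (edgeR). Their summed level was 29610.0, 41910.0, 40440.0 and 22370.0 CPM in knockout replicates 1 to 4 and 22260.0, 24110.0, 21950.0 and 21120.0 CPM in control. Rpl39 had 199, 447, 239 and 151 CPM in knockout and 163, 166, 158 and 129 CPM in control. Rpl39 gave a log2 fold change of 0.75 (SE 0.19, edgeR adjusted p = 0.0049), and turned to −0.06 with replicate 4 alone. Of 71 nuclear-encoded respiratory chain genes 68 were higher (median 0.77). Here replicate 4 kept a smaller shift: the median was 0.20, and 55 of the 71 lay above all controls and none below, though none reached an unadjusted p of 0.05 (edgeR), and over the other 5 times 50 were higher (median 0.16). Among all genes tested, 30.3% lay above and 24.9% below all 4 controls in replicate 4. Cox7b, a cytochrome oxidase subunit, had 614, 810.2, 501 and 357 CPM in knockout and 287, 329.8, 319 and 299.7 CPM in control. Cox7b gave a log2 fold change of 0.89 (SE 0.15, edgeR adjusted p = 1.8e-04), and 0.18 with replicate 4 alone. Uqcrq, a complex III subunit, was higher with all 8 libraries (log2 fold change 1.15, SE 0.31, edgeR adjusted p = 0.0089), with replicate 4 within the control range (0.16). So was Timm8b, a mitochondrial import chaperone (log2 fold change 1.05, SE 0.20, edgeR adjusted p = 7.5e-04; 0.10 with replicate 4 alone). The mitochondrial ribosomal protein gene Mrpl41 gave 1.03 with all 8 libraries (edgeR adjusted p = 0.002) and −0.08 with replicate 4 alone.

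Long genes were called lower on the same 3 libraries. Ogt, the enzyme that adds N-acetylglucosamine to proteins, had 168, 237, 188 and 444 CPM in knockout and 547, 445, 483 and 411 CPM in control. Ogt gave a log2 fold change of −0.86 (SE 0.25, edgeR adjusted p = 0.015), and its replicate 4 value lay within the control range (−0.11). Phc3, a Polycomb protein, had 23.5, 31.4, 20.4 and 54.4 CPM in knockout and 65.7, 52.8, 59.3 and 53.3 CPM in control. Phc3 gave a log2 fold change of −0.83 (SE 0.26, edgeR adjusted p = 0.019), and −0.11 with replicate 4 alone. Uvssa, a DNA repair factor, had 12.3, 20.4, 8.88 and 28.0 CPM in knockout and 32.0, 31.3, 28.5 and 31.6 CPM in control. Uvssa gave a log2 fold change of −0.82 (SE 0.24, edgeR adjusted p = 0.015), and −0.17 with replicate 4 alone. Of 10 crypt stem cell markers, 1 was lower, near the 8.07% of all genes tested that were called lower. It was Lgr5 (log2 fold change −0.63, SE 0.21, edgeR adjusted p = 0.028), and replicate 4 gave −0.10. That call ended under a gene length offset and without knockout replicate 1, knockout replicate 3, control replicate 1 or control replicate 2, where edgeR adjusted p was 0.14, 0.099, 0.065 and 0.068.

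Further lists also held calls, beside the 20.7% of all genes tested that were called. Of 16 heat shock, chaperone and cold-inducible genes, 7 were higher and none lower (median 0.51, and 0.25 with replicate 4 alone), and over the other 5 times none of the 16 was called with edgeR. Hspa8, the constitutive HSC70 chaperone, had 1641, 1062, 1746 and 1320 CPM in knockout and 876, 736, 680.4 and 844 CPM in control. Hspa8 gave a log2 fold change of 0.88 (SE 0.20, edgeR adjusted p = 0.0029), and 0.72 with replicate 4 alone, unadjusted p = 0.019. Every knockout library of Hspa8 exceeded every control library. Of 18 genes of endoplasmic reticulum stress and folding, 5 were higher, among them Calr, calreticulin (log2 fold change 0.49, SE 0.13, edgeR adjusted p = 0.0061; 0.30, adjusted p = 0.72, with replicate 4 alone). Of 28 genes of xenobiotic metabolism and efflux, 5 were higher and 1 lower, near the share over all genes, with a median of 0.39 with all 8 libraries and 0.01 with replicate 4 alone. The carboxylesterase gene Ces2e had 2803, 1980, 2767 and 2088 CPM in knockout and 1345, 1517, 1427 and 1371 CPM in control. Ces2e gave a log2 fold change of 0.77 (SE 0.14, edgeR adjusted p = 5.1e-04), and 0.53 with replicate 4 alone, unadjusted p = 0.013. Of 6 genes of bile acid handling, 2 were higher and 1 lower, the export pump gene Abcc2 (log2 fold change −1.05, SE 0.28, edgeR adjusted p = 0.0085; −0.79 with replicate 4 alone). Of 8 iron genes, 2 were higher and 1 lower, the higher ones being the ferritin chain genes Fth1 (log2 fold change 0.80, SE 0.17, edgeR adjusted p = 0.0019; 0.37, adjusted p = 0.75, with replicate 4 alone) and Ftl1 (log2 fold change 1.05, SE 0.28, edgeR adjusted p = 0.0086; 0.44, adjusted p = 0.85, with replicate 4 alone), both of which have near-identical copies in the genome. Among stromal genes the receptor gene Kdr of endothelium was lower (log2 fold change −0.75, SE 0.18, edgeR adjusted p = 0.0039; −0.69 with replicate 4 alone), as was Pdgfra of fibroblasts (log2 fold change −0.79, SE 0.20, edgeR adjusted p = 0.0051; −0.74 with replicate 4 alone). Over the other 5 times Pdgfra did not pass (0.08, edgeR adjusted p = 0.56).

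**Figure D5:**
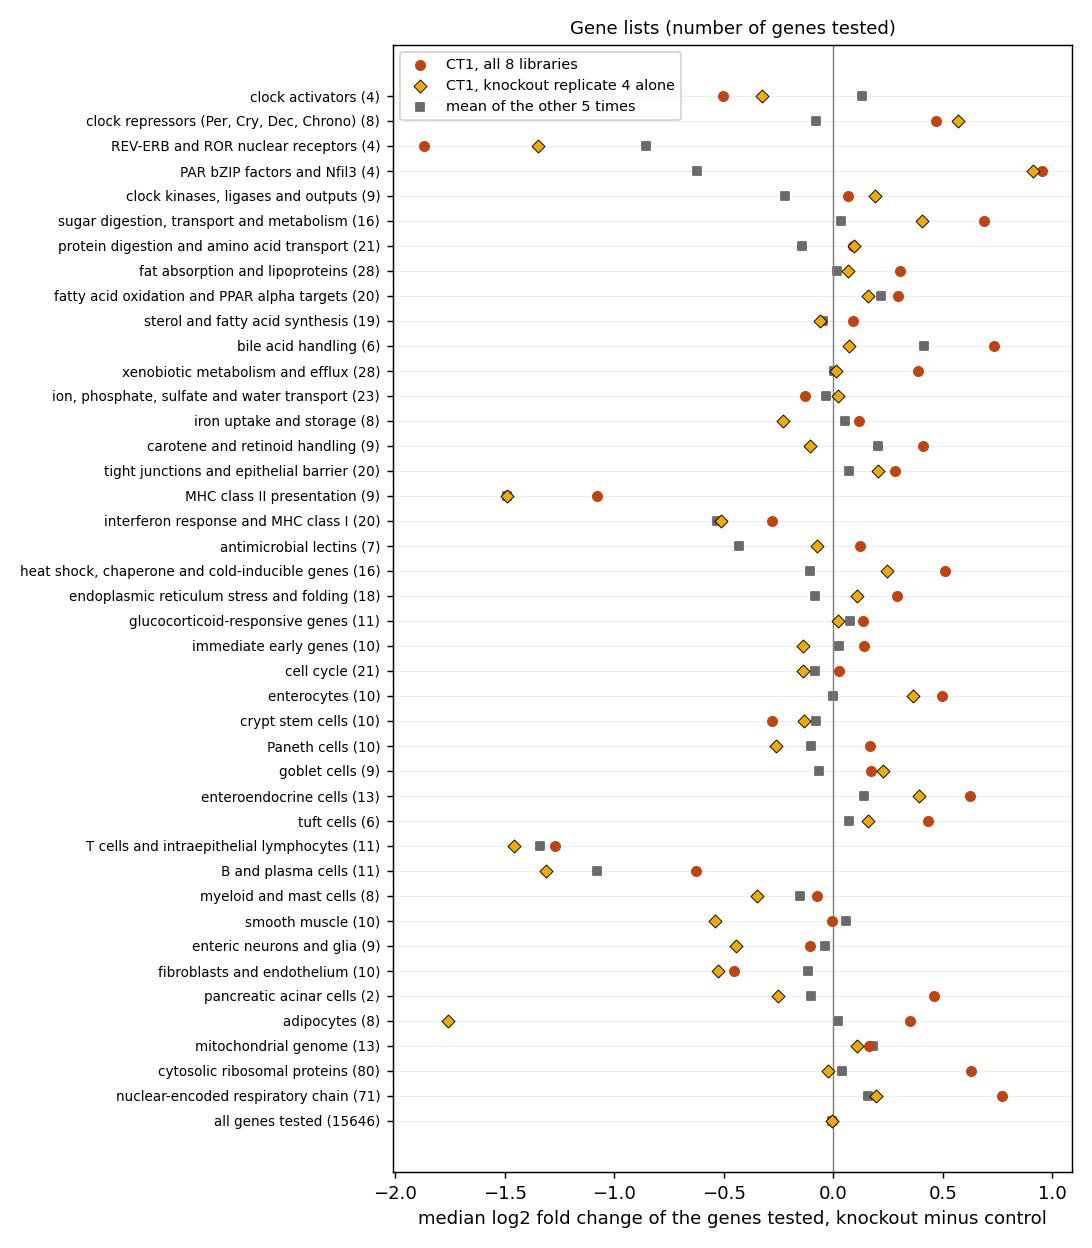
Median log2 fold change of knockout against control (horizontal axis) over the tested genes of each list (vertical axis, number of genes in brackets) with all 8 CT1 libraries, with knockout replicate 4 alone and over the other 5 times. Ribosomal proteins stand at 0.63 with all 8 libraries and −0.02 with replicate 4 alone, while T cell markers stand at −1.27, −1.46 and −1.34. Values over the other 5 times leave out the wide libraries.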

How the data were processed

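The count table deposited by the authors holds raw read counts per gene, 1 column per library. RNA came from the NucleoSpin RNA kit and libraries from TruSeq Stranded mRNA, per the labels' protocols. The mm10 genome, STAR 2.7.5c and featureCounts 1.4.6 are named in the submitters' processing notes, beside Trimmomatic 0.39, FastQC 0.11.5, DESeq2 1.22.0 and SAMtools 1.3.1. Strand setting and annotation release are not given in those sources. A column matched 47 of 48 labelled libraries, and the remaining one, a knockout CT9 library, was not analysed here. Genotype and time labels set the groups. Replicates were numbered in accession order, which pairs nothing.

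Of 55401 genes, 15646 passed the expression filter of edgeR 4.0.16 (minimum count 10, minimum total 15). Libraries were scaled by TMM, CPM values are on that scale, and 1 mean per genotype and time was fitted to all 47 libraries with the quasi-likelihood test (R 4.3.3, 35 residual degrees of freedom). Adjusted p-values are Benjamini-Hochberg over all genes tested, and a call is one under 0.05. Values over the other 5 times come from the fit without the 5 wide libraries, and values at single times from the fit of all libraries. In the fit with knockout replicate 4 alone, 44 libraries and 32 degrees of freedom remained, and the lone library was assumed to vary like those of other groups. Alternatives were DESeq2 1.42.0, limma 3.58.1 (voom, with and without quality weights), upper quartile and RLE scaling, no filter, the CT1 libraries alone, an offset by gene length, and leaving out libraries. The scripts were tested on simulated data. Knockout libraries at CT1 differed from each other by more than the sampling noise in every pair, as did control libraries.

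The libraries compared and the 41 gene lists (649 genes, 21 not tested) were chosen with earlier results of these data known. Genes named are the clock lists, from each other list up to 4 that held with replicate 4 alone or else 2 of smallest adjusted p, all 17 that held, those differing most between CT1 and the other times, and 3 in each direction whose call rests on the other knockout libraries. Genes with large effects at the other times (Slc34a2, Bco1, Tmigd1, Ces1d, Tns4, Defa29) and the further sugar gene Slc2a2 came from rules added after values were seen. Gene symbols, positions and exonic lengths were matched by identifier, 54349 with the version and 792 without it, and 260 had no match. Results for 2 of the genes these rules name are not reported here. Promoter sequences are from RefSeq (GRCm38.p6).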

Additional observations from a re-analysis of the deposited data

Results flagged for a closer look

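Among the genes named, 14 had a CT1 library that stood far from the other 3 of its group by Dixon's ratio, where chance gives about 1 group in 20. Each of the 104 genes that the naming rules chose has a knockout and a control group. Chance alone thus gives a count not far below 14. In the knockout these were Agr2, a goblet cell gene, with 571.9 CPM in replicate 2 against 329 to 367 in the other 3, Pdgfra with 38.0 CPM in replicate 1 against 48.8 or more, and Nat8f5 with 26.9 CPM in replicate 1 against 12.9 to 15.1.

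In control replicate 1 low values stood out for Dhcr7 (47.2 CPM), Slc51a (120.2 CPM) and Rbp2 (1378 CPM). Control replicate 2 stood out with 0.87 CPM for Arntl2, 1992 CPM for Fth1, 105.7 CPM for Ifi30 and 63.4 CPM for Igkv4-72, an immunoglobulin segment. Control replicate 3 did so with 1651 CPM for Slc5a1, 2.80 CPM for Lpar2 and 248.9 CPM for Cyp2c55, and control replicate 4 with 2285 CPM for Krt20.

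The genotype effect at CT1 minus its mean over the other 5 times passed edgeR's test with replicate 4 alone too for genes that include Per2 (2.23), Nat8f5 (2.29), Tef (1.82) and Arntl (−1.65), as log2 values with all libraries. It passed for 838 genes with all libraries.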

How the results depend on the processing

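With all 8 libraries the 3233 calls were 40 without the 5 wide libraries, 2097 with no filter, 862 from the 8 CT1 libraries alone, and 1320.0 to 4562 when 1 CT1 library was left out. With replicate 4 alone the 17 calls were 27 with DESeq2, 255 from the 5 CT1 libraries alone, and 12 to 24 when 1 control library was left out. For CT1 against the other times, the 838 calls were 5 with replicate 4 alone, 11 without the 5 wide libraries, 374 with no filter, and 144 to 2570.0 when 1 CT1 library was left out. The other alternatives for these 3 counts stayed within 1.5 times of them. Of the 104 genes that the naming rules chose, DESeq2 and RLE scaling left every call and direction as it was, and upper quartile scaling ended 2 calls and a gene length offset 7. Replicate 4 alone ended 71 calls, and leaving out the 5 wide libraries 66. The 104 include genes with no call to lose, such as Clock and Npas2. Both settings also ended the calls of Rpl39 and Mrpl41, which these counts leave out. They reversed the log2 fold change of Rpl39 (−0.056 and −0.061) and Mrpl41 (−0.076 and −0.081). The cause was not tested. No paired analysis was possible because replicate numbers were given in accession order and the labels tie no library of one genotype to one of the other. Depth limits genes such as Dbp, Nr1d1 and Sucnr1, with few counts in one group.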
